A study of Homo sapiens with 96 samples.

Results

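Exon sets were taken from poly(A) RNA sequencing of A549 cells, a human lung adenocarcinoma line, treated with inhibitors of protein arginine methyltransferases (PRMTs). Each set is a mutually exclusive exon (MXE) event of the splicing program rMATS: an upstream exon, a 5′ exon, a 3′ exon and a downstream exon, with the reads that go to each of the inner exons. The members were the sets whose inner exons differ in length by a number of nucleotides that is not divisible by 3, so that a transcript with the 5′ exon and a transcript with the 3′ exon enter the downstream exon in different reading frames. There were 33038 such sets among 52665 MXE sets in 8 comparison tables, or 25219 exon pairs in 7575 genes. The other 19627 sets have inner exons in the same frame.

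The cells were given 1 µM GSK591, an inhibitor of PRMT5 (the main Type II enzyme), 1 µM MS023, an inhibitor of the Type I enzymes, both together, or 0.01% DMSO as the vehicle. The groups of 3 libraries each were DMSO for 4 and 7 days, GSK591 and MS023 for 2, 4 and 7 days, and both inhibitors for 2 and 4 days. Each table set an inhibitor group against DMSO: the 2- and 4-day groups against the 4-day DMSO libraries, and the 7-day groups against the 7-day DMSO libraries. In the 2-day comparisons the inhibitor and the time in culture therefore cannot be told apart, and the 6 comparisons at 2 and 4 days share their DMSO libraries, as do the 2 at 7 days. No label says that the libraries of a group came from separate cultures, so the spread between libraries behind the p-values may be technical. That spread was pooled over events, in part for the share of all reads. For junction reads it was pooled fully, except where an event's own spread was larger.

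PRMT5 makes symmetric dimethylarginine, among others on the Sm proteins that form the core of the spliceosome's small ribonucleoproteins, whereas the Type I enzymes make asymmetric dimethylarginine on many RNA-binding proteins such as the hnRNPs. In a mutually exclusive choice the spliceosome joins the upstream exon to either of a pair of inner exons and passes over the other. Where the inner exons leave different frames, at most 1 of the forms can read the downstream exon in its usual frame, and the other often meets an early stop codon, which can mark an mRNA for nonsense-mediated decay (NMD).

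The inner exons of 6 events are printed to show how such pairs look. They were picked after the values were seen: LAMA5, NSUN2, FKBP10 and GOSR2 for their changes in junction reads, and RPL10 and PTMS because their share of reads was called in all 8 comparisons. The sequences are from GRCh37 (hg19), 5′ to 3′ on the gene's strand. Every exon shown is flanked by AG before it and GT after it, and all lie wholly in coding sequence of GENCODE v44 lifted to GRCh37. Capitals mark the first in-frame stop codon met when that exon alone is joined to the upstream exon's frame, and the NSUN2 exons and the 5′ exons of the other pairs hold no such codon.
FKBP10 5′ exon, chr17:39975782-39975927, plus strand: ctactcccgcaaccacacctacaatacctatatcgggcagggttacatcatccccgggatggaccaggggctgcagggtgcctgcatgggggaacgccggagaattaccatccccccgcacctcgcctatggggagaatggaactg
FKBP10 3′ exon, chr17:39976093-39976275, plus strand: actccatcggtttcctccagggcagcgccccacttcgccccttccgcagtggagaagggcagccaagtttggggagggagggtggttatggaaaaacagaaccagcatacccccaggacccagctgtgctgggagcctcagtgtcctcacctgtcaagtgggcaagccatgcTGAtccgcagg
GOSR2 5′ exon, chr17:45009433-45009565, plus strand: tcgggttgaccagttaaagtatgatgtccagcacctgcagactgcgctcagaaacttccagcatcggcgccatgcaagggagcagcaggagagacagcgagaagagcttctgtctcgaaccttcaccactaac
GOSR2 3′ exon, chr17:45012395-45012535, plus strand: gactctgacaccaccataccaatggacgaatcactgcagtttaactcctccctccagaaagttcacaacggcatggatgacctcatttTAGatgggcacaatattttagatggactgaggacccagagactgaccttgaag
LAMA5 5′ exon, chr20:60897714-60897814, minus strand: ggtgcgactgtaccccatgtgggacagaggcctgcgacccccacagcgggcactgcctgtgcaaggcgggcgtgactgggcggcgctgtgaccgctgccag
LAMA5 3′ exon, chr20:60897325-60897505, minus strand: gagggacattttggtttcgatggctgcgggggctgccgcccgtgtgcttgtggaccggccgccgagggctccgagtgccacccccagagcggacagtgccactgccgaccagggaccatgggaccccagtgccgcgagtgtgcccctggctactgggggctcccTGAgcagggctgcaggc
NSUN2 5′ exon, chr5:6631986-6632090, minus strand: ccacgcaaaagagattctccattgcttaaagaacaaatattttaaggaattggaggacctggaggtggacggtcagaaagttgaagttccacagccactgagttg
NSUN2 3′ exon, chr5:6625677-6625782, minus strand: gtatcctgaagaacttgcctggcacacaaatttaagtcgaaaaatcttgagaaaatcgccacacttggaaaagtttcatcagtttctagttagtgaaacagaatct
PTMS 5′ exon, chr12:6879010-6879165, plus strand: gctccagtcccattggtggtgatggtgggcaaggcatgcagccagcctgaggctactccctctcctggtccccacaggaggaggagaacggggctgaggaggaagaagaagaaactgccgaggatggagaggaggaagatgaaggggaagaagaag
PTMS 3′ exon, chr12:6879323-6879384, plus strand: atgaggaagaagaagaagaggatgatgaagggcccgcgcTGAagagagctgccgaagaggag
RPL10 5′ exon, chrX:153627679-153627737, plus strand: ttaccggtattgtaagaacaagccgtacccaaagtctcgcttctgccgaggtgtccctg
RPL10 3′ exon, chrX:153627828-153627935, plus strand: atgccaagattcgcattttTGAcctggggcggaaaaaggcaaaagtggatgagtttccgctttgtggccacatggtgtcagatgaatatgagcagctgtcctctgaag

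These pairs show the arithmetic of the class. In FKBP10, GOSR2, PTMS and RPL10 the 5′ exon alone keeps the frame of the annotated transcript and the 3′ exon alone runs into the stop codon in capitals. In NSUN2 the exons differ by 1 nt. The form with the 105-nt 5′ exon alone leaves the annotated frame, and the form with the 106-nt 3′ exon alone keeps it. In LAMA5 the exons of 101 and 181 nt each shift the frame alone, and skipping either of them leaves the transcript out of frame.

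Over all 25219 pairs the 5′ exon had a median length of 116 nt and the 3′ exon of 117 nt. The lengths differed by a median of 46 nt (range 1 to 8075 nt), and 452 pairs differed by 1 nt. Of the exon pairs, 12681 left a remainder of 1 and 12538 a remainder of 2 after division of the difference by 3. The inner exons were a median of 2631 nt apart.

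The label "mutually exclusive" held for few of these pairs in the annotation. Both exons were annotated in 25107 pairs (99.6%), and in 24259 of those (96.6%) at least 1 annotated transcript contains both inner exons. No annotated transcript joins the pair in 848 (3.38%). The share was 3.48% for the same-frame pairs, so members and same-frame pairs hardly differed in it. An inner exon annotated in NMD transcripts alone was part of 1302 pairs (5.19%, against 4.08% of same-frame pairs).

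In 27406 sets (83.0%) the events lie in coding sequence, so that the frame of each form could be read. The 5′ exon alone kept the annotated frame in 9947 (36.3%), the 3′ exon alone in 10116 (36.9%), and neither alone in 7343 (26.8%). Of the last, 5125 (69.8%), LAMA5 among them, keep the frame when both exons are joined. Among the 20063 sets with 1 frame-keeping exon, the other exon held an in-frame stop codon in 9199 (45.9%), and such a codon came in that exon or the next in 18118 (90.3%). The frame-keeping exon held a stop in 1647 (8.21%).

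Summed over the members of a table, a library's counts came to between 9521630 and 16013169. Reads shared by several members are counted for each of them, and 12274 to 15510 members were listed per table. Their measure is Ψ, the share of the 5′ exon after correction of each form for its effective length. The deposited counts include reads within the exons as well as reads over junctions, and a transcript that holds both exons adds to both forms. A second measure, added after the data were seen, therefore used reads over the junctions that only 1 form can make: the 5′ exon joined straight to the downstream exon, and the upstream exon joined straight to the 3′ exon. Junction Ψ is the share of the first among both. These exclusive reads amounted to a median of 0.981% to 1.09% of a set's reads in the 8 comparisons, so Ψ of most members rests on reads that a transcript with both exons gives as well.

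For Ψ, calls were made with a quasi-binomial model at an adjusted p under 0.05 over all MXE sets with at least 10 reads in every library. GSK591 at 2 days changed 218 of 13194 members tested, where 1.72% of all MXE sets were called, with 105 higher (background 0.915%) and 113 lower (background 0.806%). MS023 at 2 days changed 118 of 13091 (background 0.933%), 66 higher (background 0.502%) and 52 lower (background 0.431%). Both inhibitors at 2 days changed 1116 of 14444 (background 7.76%), 630 higher (background 4.36%) and 486 lower (background 3.4%). The pair of inhibitors thus had more members called than either alone at the same time and against the same controls. The GSK591 2-day libraries spread more among themselves, however. Their chi-square per degree of freedom was 6.14, 7.28 and 3.57 between pairs of libraries, against 2.13, 2.15 and 2.11 with both inhibitors. Without GSK591 2-day library a the GSK591 count was 258. The part of this spread in the difference between the counts was not tested.

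At 4 days GSK591 changed 960 of 13741 members (background 7.05%), with 640 higher, where 4.71% of all sets were called higher, and 320 lower, where 2.34% were called lower. MS023 changed 156 of 12980 (background 1.37%), 95 higher (background 0.778%) and 61 lower (background 0.595%). Both inhibitors changed 1316 of 14088 (background 9.38%), 722 higher (background 5.19%) and 594 lower (background 4.19%). At 7 days more members were called lower than higher by this model. GSK591 changed 609 of 11169 members (background 5.32%), 240 higher (background 2.17%) and 369 lower (background 3.15%), and MS023 changed 259 of 11320 (background 2.53%), 74 higher (background 0.679%) and 185 lower (background 1.85%). This split depended on the measure: limma on the log2 odds of the forms called 65 higher and 49 lower with GSK591 and 4 and 6 with MS023, and the exclusive junctions 26 and 16 sets with GSK591 and 14 and 11 with MS023. With MS023 at 2 days limma called 12 higher and 2 lower.

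The members were called about as often as MXE sets at large in most comparisons, and somewhat less often with MS023 at 4 and 7 days. In GSK591 at 4 days 6.99% of members and 7.15% of same-frame sets were called, and with both inhibitors at 4 days 9.34% and 9.44%. With MS023 at 4 days the shares were 1.20% and 1.65%. At 7 days they were 5.45% and 5.11% for GSK591 and 2.29% and 2.91% for MS023. These shares were not tested against each other. The limma fit called fewer members in each comparison, 649 with both inhibitors at 4 days and 10 with MS023 at 7 days. At 2 days GSK591 called 78, 102, 95 and 125 members without DMSO 4-day libraries a, b and c and GSK591 2-day library b, and MS023 74, 59 and 64 without its libraries a, b and c.

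**Figure D1:**
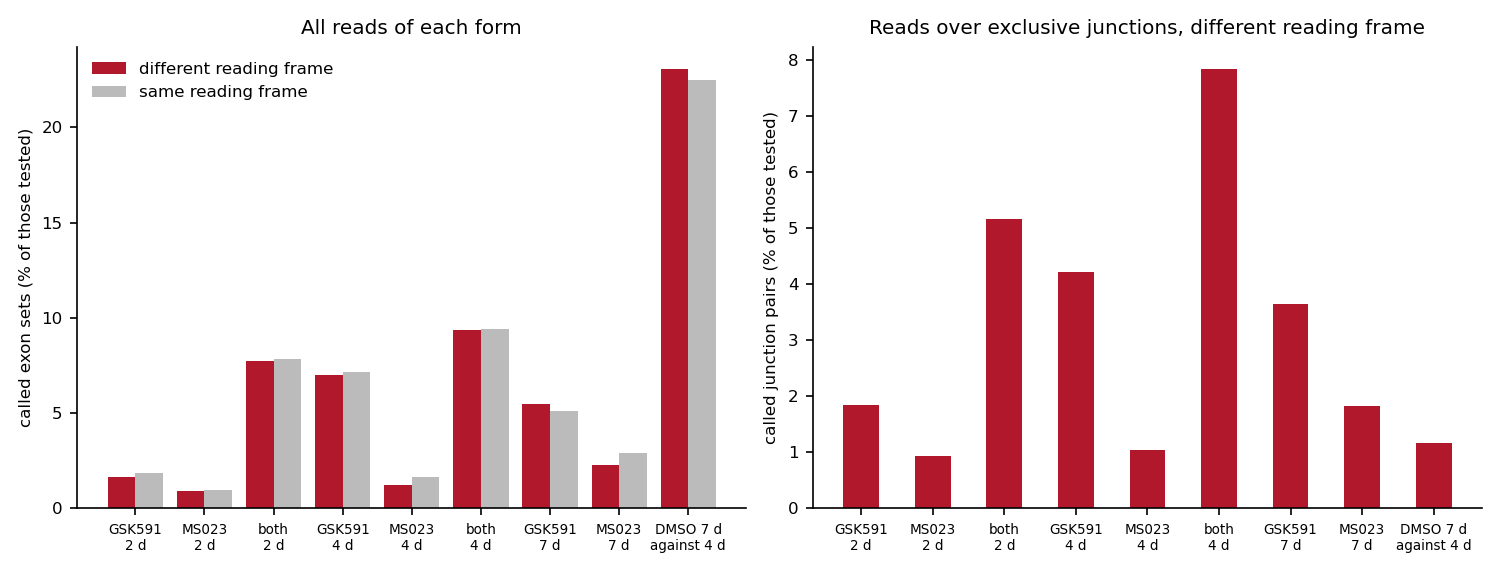
Percent of tested exon sets called for Ψ (left; members in red, same-frame sets in grey) and percent of tested member junction pairs called for junction Ψ (right) in the 8 comparisons with DMSO and for DMSO at 7 against 4 days. Members and same-frame sets have bars of like height in most comparisons, members being lower with MS023 at 4 days (1.20% against 1.65%) and 7 days (2.29% against 2.91%). DMSO at 7 against 4 days has the tallest bar for Ψ (23.1% of members) but 11 called pairs for junction Ψ.

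The untreated libraries gave a background of their own. DMSO at 7 days against DMSO at 4 days, compared over the sets listed in tables of both times, called 1578 of 6841 members (23.1%, background 22.9%), 1149 higher (background 16.4%) and 429 lower (background 6.41%). This is a larger share than any inhibitor gave in Ψ. Over exclusive junctions the same comparison called 11 of 938 member pairs (background 0.901%), in PSMA4, LTBR, TSPAN4, ULK3, TXNRD1, CA12, TFPI, C20orf24 and SPATS2L with 1 pair each and GIPC1 with 2.

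In the inhibitor comparisons the exclusive junctions called 27 of 1463 member pairs for GSK591 at 2 days (background over all MXE pairs 2.29%), 15 of 1614 for MS023 (1.17%) and 81 of 1570 for both (5.91%). At 4 days 65 of 1539 were called for GSK591 (4.27%), 16 of 1548 for MS023 (1.35%) and 113 of 1441 for both (8.96%). At 7 days the counts were 41 of 1123 for GSK591 (4.27%) and 22 of 1209 for MS023 (2.23%). These counts depended on single libraries. For GSK591 they fell to 14, 15 and 13 at 2 days without DMSO 4-day libraries a and c and GSK591 2-day library a, to between 41 and 48 at 4 days without any 1 library, and to 27, 17, 25 and 27 at 7 days without DMSO 7-day libraries a, b and c and GSK591 7-day library b. For MS023 they were 8 to 10 at 2 days without any 1 library, 6, 9, 9 and 9 at 4 days without DMSO 4-day libraries a, b and c and MS023 4-day library b, and 9, 8, 13 and 12 at 7 days without DMSO 7-day libraries a, b and c and MS023 7-day library b. With both at 4 days 69 were left without library a of both inhibitors. The DMSO time comparison fell from 11 to 7 without DMSO 4-day library c and to 4 and 5 without DMSO 7-day libraries a and b. In all, 208 member exon sets in 166 genes were called over exclusive junctions in at least 1 of the 8 comparisons. Of these sets 12 were called in 5 comparisons, 2 in 6 and 1 in 7. Sets with the same junctions are counted singly here, and the like share over all MXE sets was not counted.

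The measures went separate ways for many members. With both inhibitors at 4 days, 391 sets called for Ψ were also tested over exclusive junctions, and 280 of them had a difference of the same sign there. For GSK591 at 4 days this held for 196 of 270, for MS023 at 7 days for 66 of 89, and for DMSO at 7 against 4 days for 130 of 256.

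**Figure D2:**
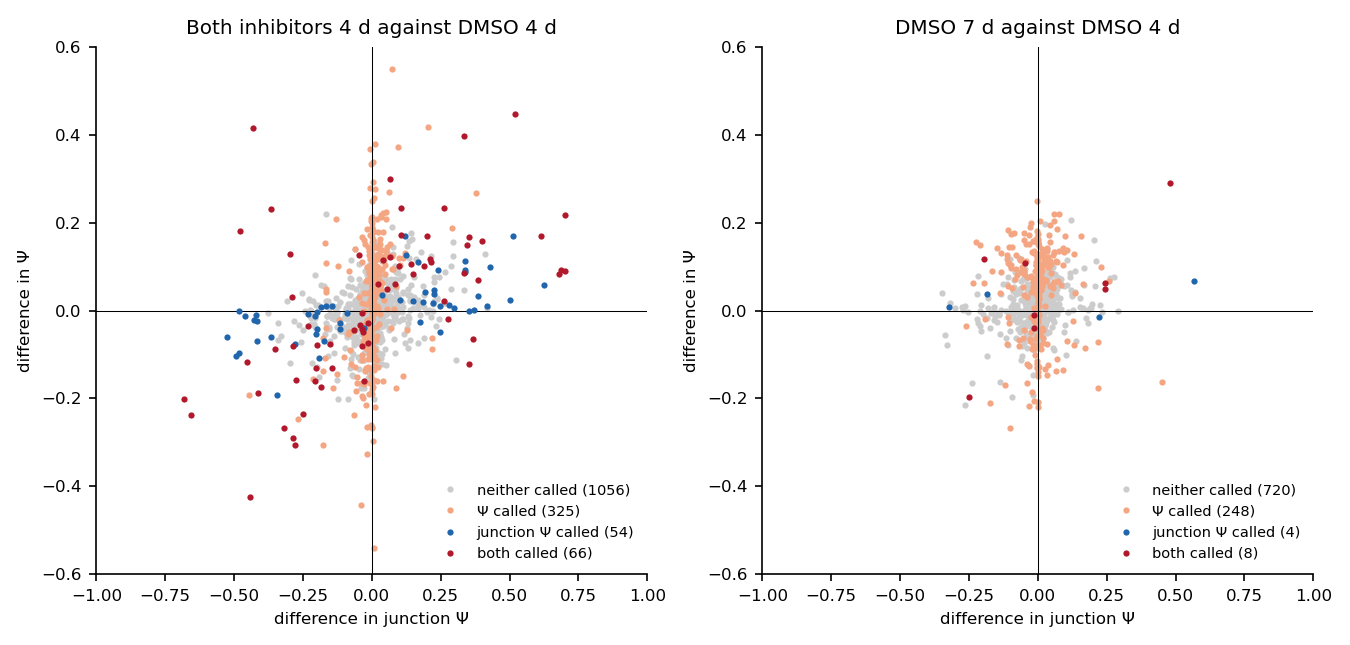
Difference in Ψ (vertical) against difference in junction Ψ (horizontal) for each member tested by both measures, with both inhibitors at 4 days (left, 1501 sets) and DMSO at 7 against 4 days (right, 980 sets). Points coloured for Ψ calls alone (325 left, 248 right) lie along the vertical axis, and points called by both measures number 66 on the left and 8 on the right.

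LAMA5, a laminin chain of the basement membrane, rose in junction Ψ with GSK591 at all 3 times. Its junction Ψ was 0.0865, 0.104 and 0.0451 in the DMSO libraries of 4 days, and 0.0256, 0.0882 and 0.111 in those of 7 days. With GSK591 it was 0.431, 0.512 and 0.519 at 2 days, 0.572, 0.465 and 0.655 at 4 days and 0.743, 0.707 and 0.645 at 7 days. With both inhibitors it reached 0.702, 0.603 and 0.652 at 2 days and 0.740, 0.773 and 0.787 at 4 days. Every library that had GSK591 lay above every DMSO library, with no overlap.

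For LAMA5 the mean rose from 0.0786 ± 0.0303 (SD, n = 3) in DMSO to 0.487 with GSK591 at 2 days (adjusted p = 1.01e-14), 0.564 at 4 days (1.26e-13) and 0.767 with both at 4 days (1.05e-36). At 7 days it rose from 0.0750 to 0.698 (1.46e-16). MS023 alone gave means of 0.109 at 2 days, 0.157 at 4 days and 0.148 at 7 days, with adjusted p of 0.692, 0.652 and 0.641. Summed over libraries, the 101-nt exon's own junction had 25 reads and that of the 181-nt exon 308 in DMSO at 4 days, against 280 and 87 with both inhibitors. The calls held without any single library. Ψ over all reads changed by 0.0757 and 0.0928 with both inhibitors at 2 and 4 days and was not called with GSK591 alone.

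NSUN2, an RNA cytosine methyltransferase, showed the same order of groups. Junction Ψ, here the share of the form with the 105-nt exon alone, which leaves the annotated frame, was 0.128, 0.228 and 0.238 in DMSO at 4 days. It was 0.635, 0.671 and 0.688 with GSK591 at 4 days and 0.956, 0.804 and 0.938 with both inhibitors at 4 days. No library of these inhibitor groups overlapped DMSO.

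The NSUN2 mean was 0.198 in DMSO at 4 days and 0.665 with GSK591 (adjusted p = 2.69e-07) and 0.899 with both (1.78e-11). At 2 days it was 0.560 with GSK591 (0.00159, but 0.0647 without DMSO 4-day library a and 0.0504 without library b) and 0.739 with both (6.33e-05). MS023 gave 0.190 and 0.234 at 2 and 4 days, neither called. At 7 days the DMSO libraries stood at 0.409, 0.234 and 0.237 and GSK591 at 0.756, 0.328 and 0.659, which overlap in part and were not called (adjusted p = 0.521). MS023 at 7 days was lower than DMSO (0.0788 against 0.293, adjusted p = 0.0455), a call lost without any single library (0.0571 to 0.526).

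FKBP10, a peptidyl-prolyl isomerase of the endoplasmic reticulum that helps collagen fold, moved the other way with GSK591. The move was toward the form with the 183-nt 3′ exon alone, which leaves the annotated frame. Junction Ψ was 0.998, 0.985 and 0.990 in DMSO at 4 days and 0.982, 0.994 and 0.982 at 7 days. It was 0.716, 0.647 and 0.667 with GSK591 at 4 days, 0.892, 0.866 and 0.856 with GSK591 at 7 days and 0.765, 0.677 and 0.786 with both at 4 days. None of these libraries reached the DMSO range.

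The mean of FKBP10 fell from 0.991 in DMSO at 4 days to 0.831 with GSK591 at 2 days (adjusted p = 3.12e-17) and 0.677 at 4 days (3.82e-46), and from 0.986 to 0.871 at 7 days (1.52e-13). With MS023 it was 0.989 and 0.991 at 2 and 4 days and 0.994 at 7 days. For this event Ψ over all reads was called in the same 5 comparisons that include GSK591, and the calls on junction reads held without any single library.

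GOSR2, a SNARE protein of the Golgi, changed with MS023. Its 5′ exon keeps the frame, and the 3′ exon alone meets the stop codon TAG printed in capitals. Junction Ψ was 0.741, 0.943 and 0.720 in DMSO at 4 days and 0.875, 0.960 and 0.917 at 7 days. With MS023 it was 0.302, 0.358 and 0.382 at 2 days, 0.349, 0.516 and 0.378 at 4 days and 0.419, 0.318 and 0.368 at 7 days. The MS023 libraries lay below all DMSO libraries at each time.

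The GOSR2 mean fell from 0.801 to 0.348 with MS023 at 2 days (adjusted p = 0.000582, 0.128 without DMSO 4-day library b) and to 0.414 at 4 days (0.00625, 0.311 without DMSO 4-day library b, 0.119 and 0.10 without MS023 4-day libraries a and c). At 7 days it fell from 0.917 to 0.369 (4.91e-05). With both inhibitors it was 0.227 at 2 days (1.71e-06) and 0.324 at 4 days (0.00445, 0.110 without library a of both inhibitors). GSK591 at 2 days gave 0.800, 0.385 and 0.50, which overlapped DMSO and was not called, and later times had too few reads to test. Ψ over all reads went up for this event, by 0.181 with both inhibitors at 4 days, so that the measures disagreed in sign.

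NUP85, a scaffold nucleoporin of the nuclear pore, also changed with MS023. Junction Ψ was 0.444, 0.200 and 0.333 in DMSO at 4 days and 0.907, 0.821 and 0.963 with MS023 at 4 days, with no overlap. The mean rose from 0.326 to 0.897 (adjusted p = 2.63e-05) and to 0.779 at 2 days (0.00488, but 0.156 without DMSO 4-day library b and 0.0723 without MS023 2-day library a). GSK591 at 2 days stood at 0.308, beside DMSO.

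TFPI, the inhibitor of the tissue factor pathway of coagulation, is 1 of the pairs that share no annotated transcript. Its exons are of 122 and 31 nt, and no annotated coding frame spans the flanking exons of this set. Junction Ψ was 0.531, 0.461 and 0.452 in DMSO at 4 days and 0.0133, 0.0615 and 0.0156 with GSK591 at 4 days. With both inhibitors at 4 days it was 0.0405, 0.0329 and 0.0394. The groups did not overlap, and the mean fell from 0.481 to 0.0302 (adjusted p = 1.04e-11) and 0.0376 (2.18e-17). MS023 at 4 days stayed at 0.436. DMSO at 7 days was 0.184, 0.167 and 0.348, itself below DMSO at 4 days (adjusted p = 0.0174), and GSK591 at 7 days (0.114) was not called against it.

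**Figure D3:**
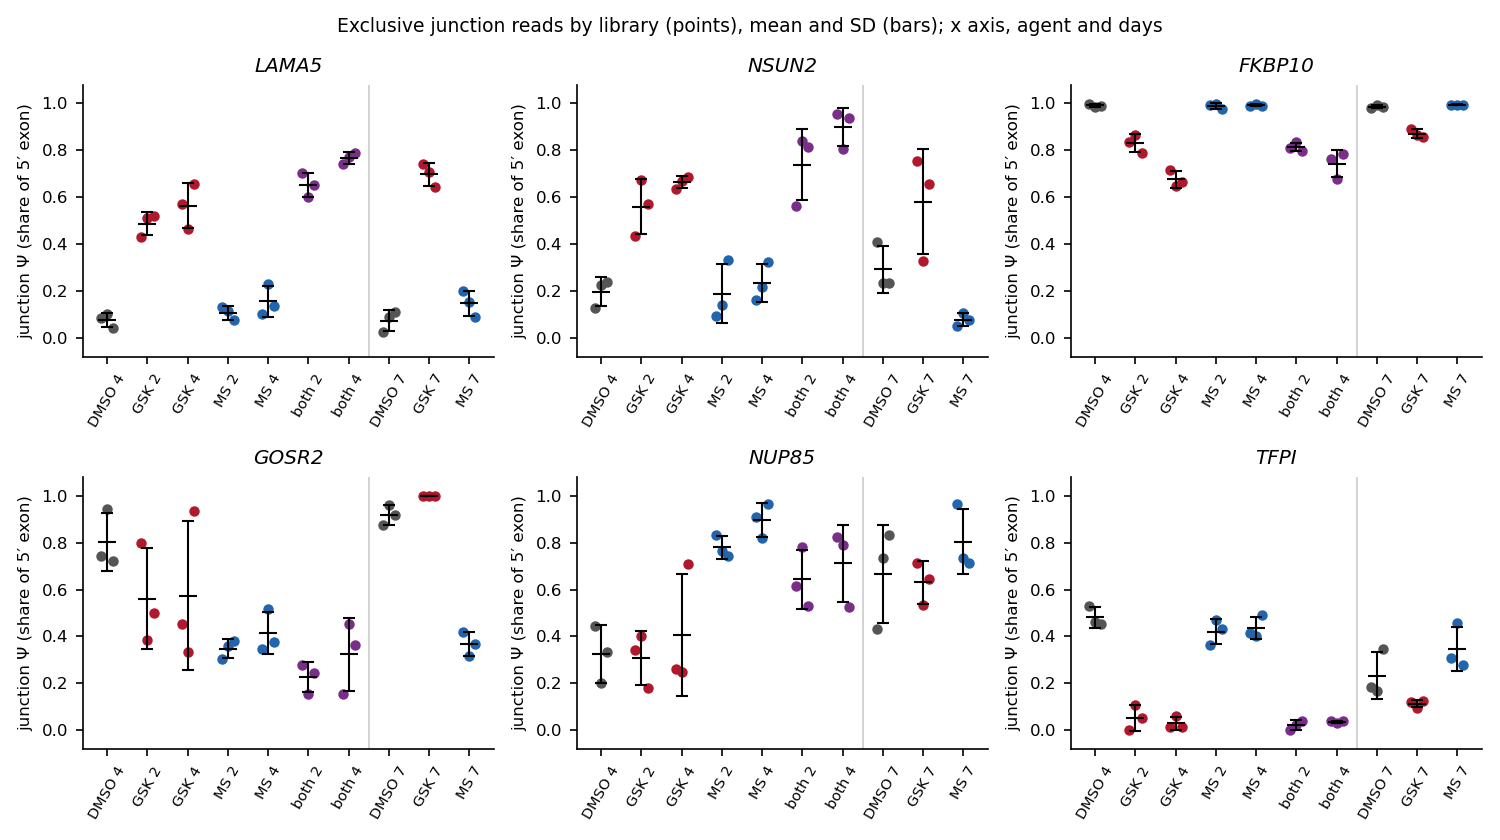
Junction Ψ (0 to 1) of each library (points) with the mean and SD of each group of 3 (bars) for LAMA5, NSUN2, FKBP10, GOSR2, NUP85 and TFPI in the 10 groups. LAMA5 and NSUN2 are higher and FKBP10 and TFPI lower in the groups with GSK591 at 2 and 4 days, whereas with MS023 GOSR2 is lower at each time and NUP85 is higher at 2 and 4 days. Groups under the read minimum are drawn but were not tested, GOSR2 with GSK591 at 4 and 7 days and NUP85 at 7 days among them.

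Other pairs were called over exclusive junctions with GSK591, with MS023 or with each of them, and like the 6 above they were chosen after the values were seen. PSMA4, a subunit of the proteasome core, had junction Ψ of 0.252, 0.281 and 0.195 in DMSO at 4 days, and fell to means of 0.0401 and 0.00603 with GSK591 at 2 and 4 days and 0.0293 and 0.0112 with both. At 7 days it fell from 0.0458 to 0.00237 with GSK591. DMSO itself was lower at 7 than at 4 days, and the 5 calls held without any single library.

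ULK3, a kinase of the autophagy family, had junction Ψ of 0.0690, 0.250 and 0 in DMSO at 4 days and 0.676, 0.629 and 0.662 with GSK591 at 4 days. The mean rose from 0.106 to 0.661 and 0.656 with GSK591 at 2 and 4 days and to 0.673 and 0.807 with both, with no overlap. DMSO at 7 days had 0.846, 0.60 and 0.571, within or above the range of the GSK591 groups, from 28 and 14 reads over the exclusive junctions, and differed from DMSO at 4 days (adjusted p = 0.0174).

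Further pairs rose with GSK591. UBE2C, the ubiquitin-conjugating enzyme of the anaphase-promoting complex, went from 0.375 to 0.579 and 0.664 at 2 and 4 days, and from 0.280 to 0.683 at 7 days. The call at 2 days was lost without GSK591 2-day library a (adjusted p = 0.0868), and those at 4 and 7 days held without any single library. LETMD1 went from 0.264 to 0.906 with GSK591 at 4 days (adjusted p = 2.26e-06) and 0.887 with both (4.78e-05), and held as well. CIZ1, a zinc finger protein that binds CDKN1A, went from 0.313 to 0.912 with GSK591 at 2 days (0.00448, 0.0829 without GSK591 2-day library a).

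Other pairs fell. With both inhibitors at 4 days PLEKHA6 went from 0.912 to 0.483 (adjusted p = 0.00454) and ALKBH3, an alkylation repair demethylase, from 0.989 to 0.783 (4.89e-05), and neither call was lost without a single library. With GSK591 at 4 days they stood at 0.460 (0.00574, 0.0865 without GSK591 4-day library a) and 0.886 (0.00940, 0.0704 without DMSO 4-day library c, 0.0588 and 0.139 without GSK591 4-day libraries a and b). These pairs moved toward the upstream exon joined to the 3′ exon, though in ALKBH3 the 5′ exon kept the larger share.

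MS023 changed SUMF2, a paralogue of the sulfatase-modifying enzyme. Its junction Ψ was 0.0732, 0.0970 and 0.0286 in DMSO at 4 days and 0.281, 0.322 and 0.293 with MS023 at 2 days, which do not overlap. The mean rose from 0.0662 to 0.298 and 0.257 with MS023 at 2 and 4 days and to 0.319 and 0.413 with both, and from 0.0690 to 0.229 at 7 days. GSK591 at 7 days (0.180) was called too, but that call (adjusted p = 0.0224) was lost without DMSO 7-day library a, b or c (0.160, 0.164 and 0.105) or GSK591 7-day library b or c (0.175 and 0.420). HEATR2, needed for the assembly of ciliary dynein arms, fell from 0.944 to 0.374 with MS023 at 2 days (0.00103, 0.149 without MS023 2-day library c) and 0.399 at 4 days (0.00658, 0.0539 without DMSO 4-day library a).

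A pair of KIFC3, a minus-end-directed kinesin, had opposite signs with the inhibitors at 7 days. Its exons share no annotated transcript. Junction Ψ was 0.230, 0.315 and 0.304 in DMSO at 7 days, 0.492, 0.576 and 0.495 with GSK591 and 0.154, 0.180 and 0.178 with MS023. These 3 groups did not overlap. The rise with GSK591 was called (adjusted p = 1.21e-05) and the lower value with MS023 was not, while the difference between the inhibitors at 7 days was 0.350 (adjusted p = 1.00e-13). Both inhibitors together lowered this KIFC3 pair from 0.385 in DMSO at 4 days to 0.142 at 2 days (0.00187, 0.0686 without library b of both inhibitors) and 0.180 at 4 days (0.0151, 0.214, 0.104 and 0.0934 without libraries a, b and c of both inhibitors). Another KIFC3 pair fell in junction Ψ with GSK591 at 7 days, from 0.551 to 0.236 (adjusted p = 0.0163). In all, 121 of the 848 pairs without a shared transcript were called by either measure in at least 1 comparison, in 97 genes. Of these pairs 114 were called for Ψ and 24 by junction reads. Among all members, counted per exon set and not per pair, 2834 of 33038 were called for Ψ in at least 1 comparison.

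TSPAN4, a tetraspanin of the cell membrane, was the pair called over exclusive junctions in 7 comparisons, higher in each. Its exons are of 80 and 192 nt, and no annotated coding frame spans the flanking exons of this set, so the frame of its forms could not be read. Junction Ψ was 0.346, 0.335 and 0.337 in DMSO at 4 days, 0.530, 0.464 and 0.485 with GSK591 and 0.507, 0.477 and 0.482 with MS023 at 4 days. With both inhibitors it was 0.764, 0.817 and 0.679 at 2 days and 0.662, 0.539 and 0.712 at 4 days, all above DMSO.

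The TSPAN4 mean rose from 0.340 to 0.753 with both at 2 days (adjusted p = 3.18e-15) and 0.638 at 4 days (1.90e-05), and from 0.154 to 0.336 with GSK591 at 7 days (0.000447). These calls held without any single library. Those with GSK591 at 2 days (0.501, adjusted p = 0.0119) and 4 days (0.493, 0.0120) and with MS023 at 2 days (0.523, 0.00532) and 7 days (0.322, 0.0262) were each lost without 3 to 5 single libraries (0.0549 to 0.378), and MS023 at 4 days was not called (0.489, 0.0524). DMSO itself was lower at 7 than at 4 days (0.000715). GSK591 and MS023 differed by -0.0219, 0.00454 and 0.0139 at 2, 4 and 7 days, none called.

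Ψ over all reads was called in all 8 comparisons for 7 sets. In the set of RPL10, a protein of the large ribosomal subunit with many processed pseudogenes, Ψ was 0.113, 0.112 and 0.105 in DMSO at 4 days. It was 0.380, 0.385 and 0.386 with GSK591 at 4 days and 0.0687, 0.0704 and 0.0639 with MS023 at 4 days. The GSK591 libraries were all above and the MS023 libraries all below the controls.

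The RPL10 mean rose from 0.110 to 0.328 with GSK591 at 2 days (adjusted p = 7.21e-13), to 0.384 at 4 days (4.78e-33) and to 0.333 with both at 4 days, and from 0.142 to 0.376 at 7 days. It fell with MS023 to 0.0741 (1.25e-09), 0.0677 (7.66e-12) and, at 7 days, 0.0588 (9.87e-11). GSK591 and MS023 at 4 days differed by 0.316 (2.61e-81). Each library had 17546 to 36554 reads here, of which exclusive junctions made up 0.0456% to 0.0612%, so nearly all reads behind this difference came from the exons and their shared junctions. The part that reads from near-identical copies had in it was not tested.

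PTMS, which encodes the small acidic nuclear protein parathymosin, had the opposite signs in Ψ. It was not called over exclusive junctions in any comparison with DMSO. Ψ was 0.206, 0.189 and 0.192 in DMSO at 4 days, 0.0927, 0.108 and 0.116 with GSK591 at 4 days and 0.239, 0.242 and 0.294 with MS023 at 4 days. The groups did not overlap. The mean fell from 0.196 to 0.105 with GSK591 (adjusted p = 1.75e-06) and rose to 0.258 with MS023 (0.00991, 0.107 without MS023 4-day library c). At 7 days it fell from 0.299 to 0.126 with GSK591 (3.91e-05) and rose to 0.379 with MS023 (0.0115, 0.0650 and 0.119 without DMSO 7-day libraries a and b, 0.0623 without MS023 7-day library a). At 2 days it was 0.134 with GSK591 (0.0144, 0.0909 and 0.0638 without DMSO 4-day libraries a and c, 0.0758 without GSK591 2-day library a) and 0.267 with MS023 (0.0162, 0.0561 and 0.144 without MS023 2-day libraries b and c).

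EEF1D, a guanine nucleotide exchange factor of translation elongation, went the same way as PTMS. Ψ of its 72- and 43-nt exons was 0.902, 0.880 and 0.936 in DMSO at 4 days, 0.702, 0.732 and 0.725 with GSK591 at 4 days and 0.958, 0.966 and 0.944 with MS023 at 4 days, with no overlap. The mean fell from 0.906 to 0.720 (adjusted p = 8.53e-12) and rose to 0.956 (0.00549, 0.0906 without MS023 4-day library b). Over exclusive junctions, however, DMSO at 4 days had 24 reads for the 5′ and 731 for the 3′ exon, and no comparison with DMSO called a change there.

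KIAA1191 fell by both measures. Ψ of its 87-nt 5′ exon was 0.728, 0.688 and 0.666 in DMSO at 4 days, and the mean of 0.694 fell to 0.469 with GSK591, 0.515 with MS023 and 0.388 with both at 4 days (adjusted p = 1.24e-08 with both). Junction Ψ was 0.407, 0.427 and 0.336 in DMSO and 0.157, 0.0745 and 0.102 with both at 4 days, and it was called in 6 of the 8 comparisons, all but GSK591 and MS023 at 2 days (adjusted p = 0.263 and 0.0899). With GSK591 at 7 days it fell from 0.292 to 0.0587 (6.31e-07). The junction call with MS023 at 4 days (0.223, adjusted p = 0.0499) was lost without 5 of the 6 libraries (0.0988 to 0.520), that with GSK591 at 4 days without DMSO 4-day libraries a and b and GSK591 4-day library a (0.0567, 0.0740 and 0.0604), and that with MS023 at 7 days without libraries a and b of DMSO and of MS023 (0.163, 0.128, 0.141 and 0.0625). The Ψ calls at 2 days were lost without 3 libraries for GSK591 (0.0586 to 0.0881) and 4 for MS023 (0.0695 to 0.0853).

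RNF181, a ubiquitin ligase, and XPO1, the main nuclear export receptor, were called in every comparison too. RNF181 fell from 0.725 in DMSO at 4 days to 0.506 with both inhibitors at 4 days (adjusted p = 7.72e-10), and XPO1 from 0.970 to 0.888 (1.80e-11). With GSK591 at 2 days the calls of RNF181 (0.642, adjusted p = 0.0432) and XPO1 (0.949, 0.0234) were lost without DMSO 4-day library a (0.214 and 0.0988) or GSK591 2-day library b (0.0808 and 0.143), and without some others. RNF181 was also lost with MS023 at 2 days without DMSO 4-day library a or MS023 2-day library c (0.0538 and 0.0748), with GSK591 at 7 days without DMSO 7-day library a or GSK591 7-day library b (0.0930 and 0.0843), and with MS023 at 7 days without 4 of the 6 libraries (0.0510 to 0.142). XPO1 was lost with MS023 at 7 days without 4 of the 6 as well (0.0560 to 0.0888). C17orf76-AS1, a noncoding host of small nucleolar RNAs, was called in 7 comparisons and rose from 0.686 to between 0.787 and 0.891 at 2 and 4 days, but its DMSO libraries rose as well, to 0.815 at 7 days. Over exclusive junctions the sets of RNF181, XPO1 and C17orf76-AS1 were not called in any comparison with DMSO.

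TXNRD1, the cytosolic thioredoxin reductase, rose in Ψ in all 8, from 0.170 to between 0.207 and 0.297 against the 4-day controls. Its junction Ψ split by inhibitor. It was 0.0642, 0.0928 and 0.0882 in DMSO at 4 days, 0.0426, 0.0215 and 0.0288 with GSK591 and 0.134, 0.117 and 0.118 with MS023 at 4 days, with no overlap between the 3 groups. The fall with GSK591 was called (adjusted p = 0.00163), as was the rise with MS023 at 2 days (0.154, 0.00510) and 7 days (0.0348 to 0.0900, 4.69e-05).

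**Figure D4:**
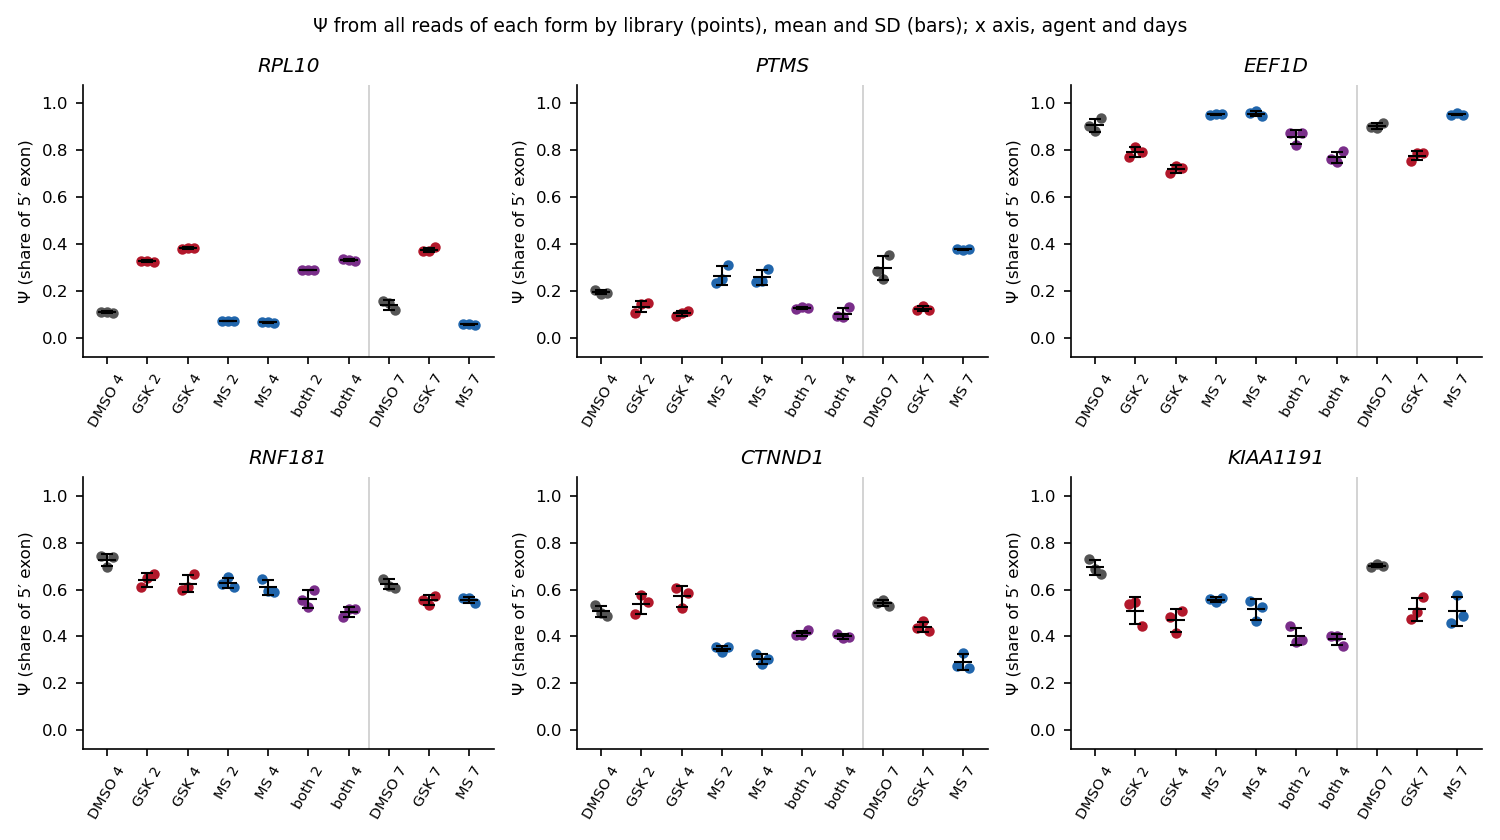
Ψ (0 to 1) over all reads in each library (points) with the mean and SD of each group of 3 (bars) for RPL10, PTMS, EEF1D, RNF181, CTNND1 and KIAA1191 in the 10 groups. RPL10 is higher with GSK591 and lower with MS023 than DMSO, PTMS and EEF1D show the reverse, CTNND1 is lower with MS023, and RNF181 and KIAA1191 are lower with every treatment.

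Large differences in Ψ came with GSK591, alone or with MS023. CDK10, a cyclin-dependent kinase, had Ψ of 0.151, 0.208 and 0.217 in DMSO at 4 days and 0.621, 0.593 and 0.567 with GSK591, with no overlap and means of 0.192 and 0.594. With both at 4 days the mean was 0.640. Its exclusive junctions had 9 reads for the 5′ exon and 133 for the 3′ exon in DMSO at 4 days, and 44 and 27 with both inhibitors at 4 days, where junction Ψ rose from 0.0653 to 0.584 (adjusted p = 1.78e-07).

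RHPN1 fell from 0.691 to 0.257 with GSK591 at 4 days, and another of its pairs rose from 0.496 to 0.831 at 7 days. TRPT1, a tRNA 2′-phosphotransferase, rose from 0.209 to 0.482 with GSK591 at 2 days (adjusted p = 0.0376, 0.141 and 0.161 without DMSO 4-day libraries a and b, 0.107 and 0.0940 without GSK591 2-day libraries b and c), and CHTF18, part of an alternative clamp loader of replication, from 0.342 to 0.665 at 7 days. TRMT2B, a mitochondrial RNA methyltransferase, rose from 0.0849 to 0.389 at 7 days. With both inhibitors at 2 days MVD, an enzyme of the mevalonate pathway, fell from 0.832 to 0.386 and C17orf61-PLSCR3, a readthrough gene, rose from 0.303 to 0.749. None of these sets from RHPN1 to C17orf61-PLSCR3 was called over exclusive junctions in a comparison with DMSO.

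Other genes changed in Ψ with MS023. The EEF1D pair of 100 and 101 nt fell from 0.915 to 0.560 with MS023 at 7 days (adjusted p = 3.86e-05) and to 0.785 with GSK591 (0.0348, 0.0881 and 0.213 without DMSO 7-day libraries a and b, 0.226 without GSK591 7-day library b). CTNND1, the p120 catenin of adherens junctions, had Ψ of 0.533, 0.50 and 0.488 in DMSO at 4 days and fell from a mean of 0.507 to 0.348 at 2 days (adjusted p = 3.31e-05) and 0.304 at 4 days (5.84e-08), and from 0.543 to 0.291 at 7 days (3.00e-09). RPL37A, a ribosomal protein of the large subunit with processed copies, fell from 0.909 to 0.613 at 4 days, and ANKS6 from 0.626 to 0.340 at 7 days. WDR59, a subunit of the GATOR2 complex, fell from 0.946 to 0.712 at 4 days (adjusted p = 0.00605, 0.0667 without MS023 4-day library c), and IQSEC2, an exchange factor for ARF GTPases, from 0.468 to 0.195 at 2 days. A pair in RP11-640M9.2 (0.298 to 0.565) is uncertain, since that locus has near-identical copies. None of these sets from EEF1D to RP11-640M9.2 was called over exclusive junctions in a comparison with DMSO.

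Genes grouped by function were counted as well. In the translation list (ribosomal proteins and translation factors) GSK591 at 4 days changed 50 of 263 members tested, 40 higher and 10 lower (19.0%, against 6.99% of all members), and both inhibitors at 4 days 58 of 287, 22 higher and 36 lower (20.2% against 9.34%). MS023 changed 14 of 230 at 2 days (6.09% against 0.901%) and 34 of 220 at 7 days, 6 higher and 28 lower (15.5% against 2.29%). These 50, 58, 14 and 34 sets lay in 32, 38, 13 and 22 genes. Called members had more reads than tested members, with a median lowest library count of 436 against 217 for GSK591 at 4 days. For MS023 at 7 days it was 1404 against 186. The read depth of this and the later lists was not compared, and its part in their shares was not tested. RPS27A rose from 0.0733 to 0.198 and EIF2D from 0.481 to 0.628 with GSK591 at 4 days, and RPL17 fell from 0.979 to 0.675 with both.

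By junction reads at most 2 of the 30 to 48 translation members tested in a comparison passed: 2 of 33 with both inhibitors at 4 days, where 113 of 1441 member pairs in all passed, and 2 of 32 with MS023 at 7 days, where 22 of 1209 did. MRPS18C, a mitochondrial ribosomal protein, was 1 of them with MS023 at 4 days, where Ψ rose from 0.506 to 0.626 and junction Ψ from 0.0681 to 0.237.

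Among splicing factors GSK591 changed 28 of 284 at 4 days, 15 higher and 13 lower (9.86% against 6.99% of all members), and both inhibitors 48 of 296, 27 higher and 21 lower (16.2% against 9.34% of all members). PRPF4B, a kinase of the spliceosome, fell from 0.204 to 0.0227, LUC7L, a U1-associated factor, from 0.454 to 0.300, and PTBP1, the polypyrimidine tract-binding protein, from 0.610 to 0.470 with GSK591 at 4 days, while HNRNPH3 rose from 0.60 to 0.754. MS023 at 4 days changed 7 of 243 (2.88% against 1.20%), among them ZC3H14 (0.533 to 0.648) and HNRNPD (0.190 to 0.143).

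The methyltransferases and their cofactors had few members to test. GSK591 at 4 days changed 3 of 20 (15.0% against 6.99% of all members), among them the cofactor CLNS1A (0.420 to 0.514). Both inhibitors changed 2 of 18 at 2 days (11.1% against 7.73%) and 2 of 19 at 4 days (10.5% against 9.34%), among them PRMT7 (0.118 to 0.312).

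Of the cell cycle and DNA repair genes 22 of 322 changed with GSK591 at 4 days (6.83% against 6.99% of all members) and 29 of 295 with both (9.83% against 9.34%). RAD51D, a recombination paralogue, rose from 0.167 to 0.396, and ATR, the replication stress kinase, fell from 0.971 to 0.767 with GSK591, while KIF23, a kinesin of cytokinesis, rose from 0.0773 to 0.410 with both. Among cytoskeleton and adhesion genes 16 of 163 changed with GSK591 at 4 days (9.82%), ITGB1, the beta-1 integrin, falling from 0.302 to 0.0515, and 19 of 150 with both (12.7%).

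Chromatin regulators changed in 8 of 192 with GSK591 at 4 days (4.17%, against 6.99% of all members), with EHMT2, a histone H3 lysine methyltransferase, falling from 0.268 to 0.128 and SIRT6, a deacetylase, rising from 0.371 to 0.516. Kinases gave 7 of 168 (4.17%), with MKNK1, which phosphorylates eIF4E, rising from 0.520 to 0.734, metabolic enzymes 9 of 99 (9.09%), and zinc finger genes 2 of 148 (1.35%).

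Of the pairs tested over exclusive junctions, 1 exon alone keeps the frame in 966 of 1463 with GSK591 at 2 days and in 683 to 1050 over the 8 comparisons. In the controls that form took more of the exclusive reads than the other in 69.6% to 73.9% of these pairs, with a median share over all of them of 0.951 to 0.975. Between 45.2% and 48.8% of those pairs moved toward it, called or not. Among the called, GSK591 at 4 days had 16 toward and 26 away, both inhibitors at 4 days 25 and 45, both at 2 days 17 and 29, and GSK591 at 7 days 7 and 17. MS023 at 4 days had 1 and 8, and MS023 at 7 days 7 and 6. In 7 of the 8 comparisons more called pairs moved away from the frame-keeping form than toward it. The comparisons at 2 and 4 days share their DMSO libraries. In GSK591 against MS023 18 moved toward and 29 away at 2 days, 35 and 38 at 4 days and 17 and 24 at 7 days. DMSO at 7 against 4 days had 2 and 3. In many pairs this form was near its upper limit in the controls, and the part of that in the lean was not tested.

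Retained-intron events, called or not, lay beside members called for Ψ more often than beside all members tested. With GSK591 at 4 days they touched 19.7% against 9.86%, and with MS023 at 4 days 23.7% against 9.14%. A retained-intron event called in the same comparison touched 14.5% of the members called with GSK591 at 4 days (139 sets, 121 of them with the intron higher) and 5.50% of all members tested. With both inhibitors at 4 days the shares were 13.4% (177 sets, 133 with the intron higher) and 5.73%, and with MS023 at 4 days 13.5% (21 sets, 4 with the intron higher) and 1.29%. At 7 days they were 12.2% (74 sets, 59 with the intron higher) and 4.39% for GSK591 and 11.2% (29 sets, 4 with the intron higher) and 2.23% for MS023. The part of retained introns in the differences in Ψ was not tested.

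Set directly against each other, GSK591 and MS023 differed in 308 of 9151 members at 2 days (background 3.57%), 955 of 9146 at 4 days (10.8%) and 619 of 8028 at 7 days (7.87%). Over exclusive junctions 72 of 1251 pairs differed at 2 days (7.34%), 117 of 1236 at 4 days (10.9%) and 65 of 875 at 7 days (8.12%). LAMA5 differed by 0.379 at 2 days and FKBP10 by -0.314 at 4 days (GSK591 minus MS023), with adjusted p of 4.08e-09 and 1.88e-51.

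A549 identity could be checked through few of these exon sets. Of the lung and epithelial markers looked for, AKR1B10, ALDH1A1, CDH1, KRT18 and NQO1 had 12, 30, 1, 1 and 3 member sets. KRT8, KRT19, EPCAM, NKX2-1 and SFTPB were looked for too, and no member set is counted here for them. No member set was listed for the blood, endothelial and fibroblast markers, so absence does not tell the cell types apart.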

How the data were processed

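Poly(A) RNA from 30 A549 libraries in 10 groups of 3 was analysed from 8 tables, which the authors made with rMATS 4.0.2 from reads aligned to hg19. Per the labels the submitters' processing notes name Trim Galore 0.6.5, STAR 2.4.2a and Picard 2.3.0. The deposited values used are counts of reads over junctions and within exons for each form in each library. The deposited p-values, false discovery rates and differences of the authors' own comparisons were not used.

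Ψ was computed from the counts divided by the effective form lengths in the tables. A 2-group quasi-binomial model was fitted to all MXE sets with at least 10 reads in every library, its dispersion moderated with limma 3.58.1 (R 4.3.3) and held at 1 or above, with an F test and Benjamini-Hochberg adjustment over all MXE sets, called under 0.05. Junction Ψ, added after the data were seen, used at least 10 exclusive reads per library, taken from the skipping counts of cassette-exon events with the same junctions. The model was fitted once per pair of junctions and adjusted over all MXE junction pairs tested. Its prior degrees of freedom were infinite, so the dispersion was a value shared by all pairs or the pair's own where larger. The shared value was 1.65 to 2.25 over the comparisons, and a small p-value there can come from many reads. The scripts were tested on simulated data.

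The table columns carry no replicate numbers, so libraries are named a, b and c by position, and the labels tie each table to its inhibitor group but not to its control. DMSO was taken as the first sample of each table, of 4 days in the tables for 2 and 4 days and of 7 days in the others, and every direction rests on this. Tables taken to share a control held equal counts for its libraries in all shared sets (0 unequal). Between libraries of a group the counts spread more than sampling noise, with a chi-square per degree of freedom of 1.62 to 7.28. Events named were the 3 genes with the largest difference in Ψ per comparison and the 8 genes called in the most comparisons, each with at least 50 reads per library, and examples from gene lists, and a gene that met this rule is not reported here. Events named for junction Ψ and the sequences were chosen after their values were seen. The members and lists were chosen with earlier results of these data known. Alternatives were other read minimums, limma on log2 odds, other adjustment sets and leaving out each library.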

Additional observations from a re-analysis of the deposited data

Results flagged for a closer look

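GSK591 and MS023 were compared directly at the same time point for every named event, and the events here are those in which that difference passed the test. Each value is the mean of GSK591 minus the mean of MS023, at the time with the clearest difference, and it is a description for events named for their response.

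In Ψ over all reads GSK591 was higher for TRPT1 at 7 days (0.260), for WDR45 at 2 days (0.404) and for CDK10 at 4 days (0.370). It was also higher for RPL37A (0.290), CTNND1 (0.267) and RPL10 (0.316) at 4 days, the last with an adjusted p of 2.61e-81. At 7 days it was higher for a pair of RHPN1 (0.431), CHTF18 (0.315), TRMT2B (0.275), ANKS6 (0.288) and the EEF1D pair of 100 and 101 nt (0.224). TXNRD1 differed by 0.0382 at 4 days.

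GSK591 was lower in Ψ at 4 days for MUM1 (-0.174), TFPI (-0.374), another pair of RHPN1 (-0.330), RP11-640M9.2 (-0.429), a pair of ULK3 with 41- and 42-nt exons (-0.365), the EEF1D pair of 72 and 43 nt (-0.236) and PTMS (-0.153). At 7 days XPO1 (-0.0223) and C17orf76-AS1 (-0.0502) were slightly lower. EEF1D thus held pairs that differed in opposite directions.

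In junction Ψ GSK591 was higher at 2 days for ULK3 (0.575), HEATR2 (0.514) and LAMA5 (0.379), at 4 days for LETMD1 (0.642) and NSUN2 (0.431), and at 7 days for UBE2C (0.228), CDK10 (0.369), KIFC3 (0.350) and ANXA2 (0.0148). It was lower at 2 days for NUP85 (-0.471) and SUMF2 (-0.190), at 4 days for PITPNA (-0.277), FKBP10 (-0.314), PSMA4 (-0.205), C20orf24 (-0.0191) and TFPI (-0.406), and at 7 days for PLEKHA6 (-0.515). The differences of ANXA2 and C20orf24 were small beside those of the others, on shares near 1 and 0.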

How the results depend on the processing

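Comparisons are given in the order GSK591, MS023 and both at 2 days, the same at 4 days, GSK591 and MS023 at 7 days, GSK591 against MS023 at 2, 4 and 7 days, and DMSO at 7 against 4 days. Limma on the log2 odds called 31, 14, 422, 267, 12, 649, 114, 10, 117, 373, 287 and 733 members. Exclusive junction reads, counted per exon set, called 28, 17, 89, 69, 18, 120, 42, 25, 84, 123, 73 and 12. GSK591 at 2 days gave 328 members when adjusted over all 5 event types and 138 with 1 set per exon pair, and the cause was not tested. With other read minimums and an unheld dispersion each count moved by less than 1.5 times. Without single libraries the counts ran from 78 to 258, 59 to 126, 707 to 1140, 587 to 814, 73 to 161, 922 to 1281, 327 to 626, 149 to 391, 144 to 389, 690 to 924, 425 to 586 and 1152 to 1451. The lowest came without DMSO 4-day library a, MS023 2-day library b, both 2-day library c, GSK591 4-day library c, MS023 4-day library b, DMSO 7-day library b for GSK591 and a for MS023 at 7 days, and MS023 2-day library a for the direct comparison at 2 days. Of 116 Ψ calls of named events, 43 were kept by limma, 114 with at least 20 reads, 116 without the length correction and 83 without any single library. Of 105 junction calls 61 held without any single library, and 0 differences turned sign. The negative binomial alternative was not run. No paired analysis was possible because the columns carry no replicate numbers.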
